A study of Mus musculus with 6 samples.

Results

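The Cyp2a and Cyp2b genes of mouse liver were followed in knockout and wild type libraries, together with Por. They were chosen by name from the deposited expression table, with earlier results of these data known. The gene lists used below were also chosen with those results known, so counts within them are descriptions. The members comprised Cyp2b9, Cyp2b10, Cyp2b13, Cyp2a4, Cyp2a5, Cyp2a12, Cyp2a22 and Por, 8 of the 25690 rows. RNA of hepatic tissue was sequenced in 3 libraries labelled hepatic FTO knockout and 3 labelled wildtype control. FTO is an RNA demethylase that removes methyl groups from N6-methyladenosine. Genotype and tissue are the only traits in the labels: strain, age, sex, diet and the allele or Cre driver are not given in the sources used here. The labels do not say whether each library is a different mouse. The p-values therefore reflect library-to-library scatter only, and that scatter may be technical.

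Cytochrome P450 enzymes of the Cyp2 family are haem proteins of the endoplasmic reticulum that oxidize drugs, plant compounds and steroids. Por encodes the reductase that hands electrons from NADPH to all of them. Transcription of Cyp2b10 is induced by the nuclear receptor CAR (Nr1i3), the sensor of phenobarbital-like compounds, and partly by PXR (Nr1i2). Cyp2b9, Cyp2b13 and Cyp2a4 are known in adult mice as female-predominant liver genes under growth hormone control, and Cyp2a5 encodes the coumarin hydroxylase, which also oxidizes nicotine.

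The Cyp2 members lie within 1140 kb of chromosome 7, and their sequences show how alike they are. The 250 bases before and 50 bases after the gene start are given for Cyp2b9 and Cyp2b13, whose levels were far apart in every library although both fell in the knockout, and for Cyp2b10. They come from RefSeq on GRCm38.p6, plus strand, at chr7:26173159-26173458 for Cyp2b9, chr7:26061245-26061544 for Cyp2b13 and chr7:25897408-25897707 for Cyp2b10. Capitals mark the bases that differ between Cyp2b9 and Cyp2b13 and, in Cyp2b10, a CAAAG motif, the core of many HNF4 binding sites.
Cyp2b9: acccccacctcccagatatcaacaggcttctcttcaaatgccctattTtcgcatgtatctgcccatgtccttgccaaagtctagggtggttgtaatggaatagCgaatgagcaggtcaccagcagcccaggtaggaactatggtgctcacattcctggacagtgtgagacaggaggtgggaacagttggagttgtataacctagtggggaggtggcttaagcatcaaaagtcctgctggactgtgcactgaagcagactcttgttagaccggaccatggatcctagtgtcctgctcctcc
Cyp2b13: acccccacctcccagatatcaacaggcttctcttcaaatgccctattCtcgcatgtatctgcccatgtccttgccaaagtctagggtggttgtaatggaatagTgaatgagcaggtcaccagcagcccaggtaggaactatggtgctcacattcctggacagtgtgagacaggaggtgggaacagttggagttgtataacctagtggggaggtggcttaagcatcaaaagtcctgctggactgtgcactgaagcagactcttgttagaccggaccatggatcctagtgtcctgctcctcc
Cyp2b10: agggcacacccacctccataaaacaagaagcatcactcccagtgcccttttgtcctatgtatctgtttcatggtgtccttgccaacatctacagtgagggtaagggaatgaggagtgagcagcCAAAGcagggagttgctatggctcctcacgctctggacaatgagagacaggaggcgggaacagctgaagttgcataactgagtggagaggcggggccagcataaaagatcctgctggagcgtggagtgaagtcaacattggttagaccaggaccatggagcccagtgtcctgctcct
The Cyp2b9 and Cyp2b13 windows differed at 2 of 300 bases (99.3% identity), and each shared 70.1% identity with the Cyp2b10 window over an alignment of 311 positions. RefSeq windows were matched for all 8 genes. CAAAG, read on both strands, was present in the windows of all 7 Cyp2a and Cyp2b genes, as in 53.9% of all 32851 windows, and was not found in that of Por. No match was found in any of the 8 windows for TTCNNNGAA, a STAT5 type motif held by 8.30% of all windows, for TTANNTAA, a PAR bZIP type motif held by 6.003%, or for AGGTCA repeated after a spacer of 4 bases (up to 2 mismatches), a CAR and PXR type motif held by 3.02%. The motifs were searched on both strands within these 300 bases only. Sites farther from the gene start were not covered, so the search cannot show that a gene lacks them.

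The coding sequences are also close, which bears on how reads could be told apart. The first 120 coding bases of GENCODE M21 transcripts (GRCm38, coding strand) are given, with capitals where the genes of a set differ.
Cyp2a5: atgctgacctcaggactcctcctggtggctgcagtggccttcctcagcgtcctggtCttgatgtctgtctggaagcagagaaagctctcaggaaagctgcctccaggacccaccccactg
Cyp2a4: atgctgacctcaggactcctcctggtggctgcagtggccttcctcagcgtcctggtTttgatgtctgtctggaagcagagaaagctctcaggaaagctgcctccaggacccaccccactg
Cyp2b9: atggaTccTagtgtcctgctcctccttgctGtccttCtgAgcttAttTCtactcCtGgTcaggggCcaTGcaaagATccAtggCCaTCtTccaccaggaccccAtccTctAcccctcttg
Cyp2b13: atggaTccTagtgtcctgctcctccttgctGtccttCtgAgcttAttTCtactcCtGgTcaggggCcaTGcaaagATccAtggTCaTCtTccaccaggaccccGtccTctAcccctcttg
Cyp2b10: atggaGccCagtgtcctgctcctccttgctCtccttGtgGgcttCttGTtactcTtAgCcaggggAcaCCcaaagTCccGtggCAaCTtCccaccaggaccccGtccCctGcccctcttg
Over these bases Cyp2a5 and Cyp2a4 differed at 1 position, Cyp2b9 and Cyp2b13 at 2, and Cyp2b9 and Cyp2b10 at 24. Over the whole coding sequence Cyp2a4 and Cyp2a5 were 98.4% identical (23 mismatches in 1482 bases), Cyp2a12 and Cyp2a22 97.0% (45 in 1476) and Cyp2b9 and Cyp2b13 92.7% (107 in 1473). Of all 50-base stretches in the annotated transcripts of a gene, 63.0% in Cyp2a5, 61.2% in Cyp2a4, 88.8% in Cyp2b9, 72.7% in Cyp2b13 and 91.3% in Cyp2b10 occurred in no other gene's transcripts. In Cyp2a12 and Cyp2a22 this share was 79.9% and 79.8%, and in Por it was 100%. With 100-base stretches the shares were 87.9% for Cyp2a5, 88.8% for Cyp2a4, 98.8% for Cyp2b9 and 90.7% for Cyp2b13. Cyp2b13 shared most with the pseudogene Gm45225 (13.8% of its 50-base stretches). Read length and the handling of reads that match more than one gene are not given in the sources used here, so the levels of these copies are uncertain to that extent.

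Levels are in FPKM, the fragments of a gene scaled to transcript length and to library size. The 10405 genes averaging 1 FPKM or more across the 6 libraries were tested with limma on log2(FPKM + 1), a scale that understates changes of low genes. A call required a Benjamini-Hochberg adjusted p below 0.05 across the tested genes. Depth inferred from the steps between low values was 34140000 to 42530000 fragments per library. Wild type replicate 3 stood apart from wild type replicates 1 and 2 (median absolute log2 difference 0.42 and 0.29 over 784 genes, against 0.12 to 0.19 among knockout libraries). Fto, the targeted gene, was at 1.79, 3.83 and 2.66 FPKM in the knockout and 6.67, 6.02 and 6.40 FPKM in wild type (limma log2 change -1.004, SE 0.19, adjusted p 0.0386). That call held without knockout replicate 2 and was lost without any other single library, with adjusted p up to 0.147, and it was also lost with no filter on low values (0.0975). The hepatocyte marker Cyp2e1 was abundant, at 3532 to 4527 FPKM in the knockout and 3541 to 4547 FPKM in wild type.

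Cyp2b9 and Cyp2b13 fell in the knockout, whereas the abundant Cyp2a5, Cyp2a4 and Cyp2a12 and the reductase Por passed no test. Of the 7 members that reached the filter, Cyp2b9 and Cyp2b13 were called lower and 0 were called higher by limma. Of all tested genes 2.76% were called, 1.65% lower and 1.11% higher. Cyp2b9 and Cyp2b13 reached the mean of 1 FPKM only through their wild type libraries, so the count is a description and supports nothing further. Cyp2b10 did not reach the filter.

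**Figure D1:**
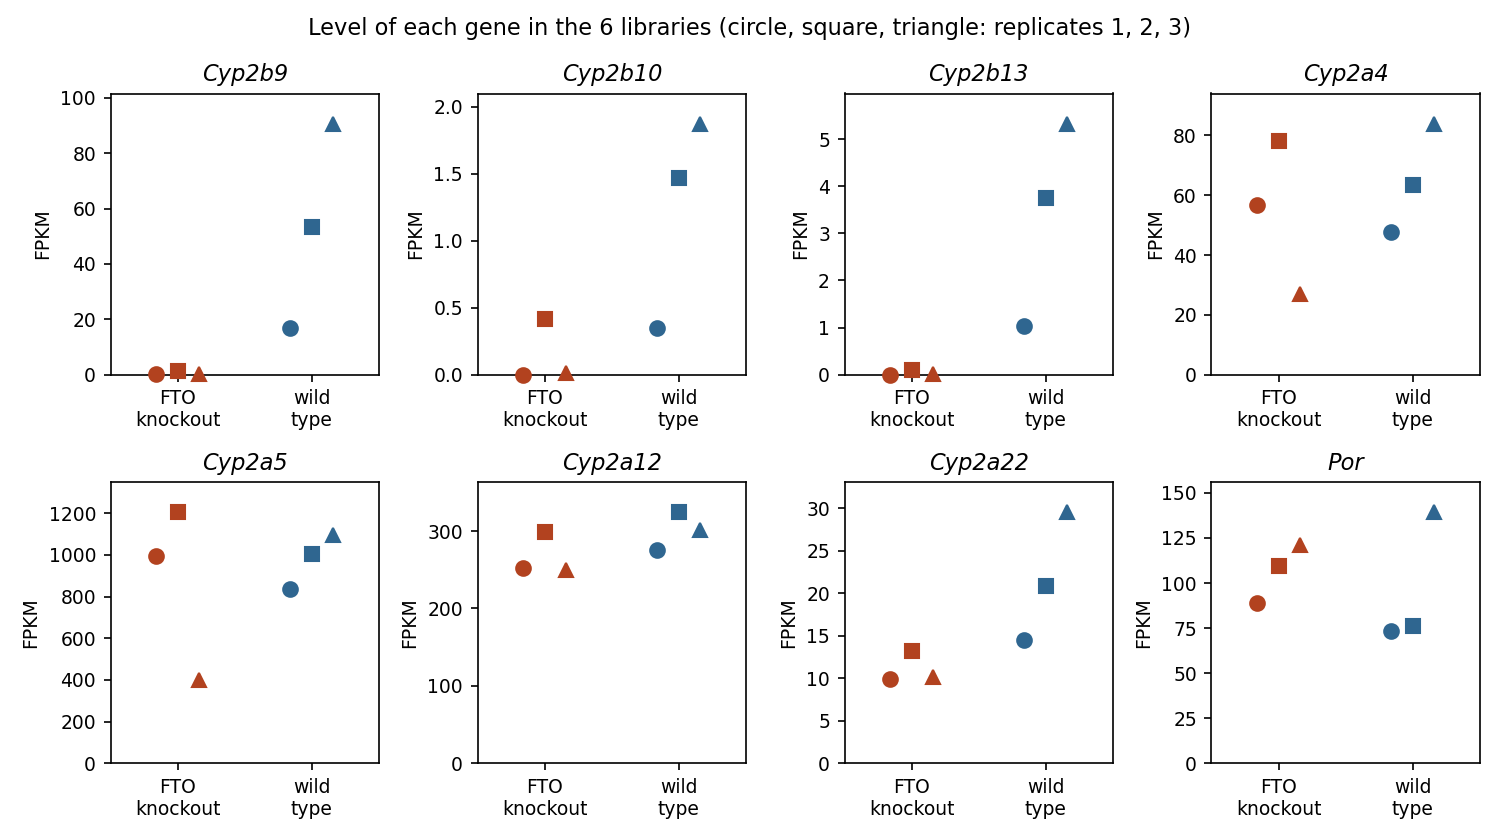
FPKM of each of the 8 genes in FTO knockout (left, red) and wild type (right, blue) libraries. Points are single libraries, with circle, square and triangle for replicates 1, 2 and 3, and each axis starts at 0. Cyp2b9 lies at or below 1.39 FPKM in the knockout and at or above 17.0 FPKM in wild type, while Cyp2a5 is lowest in knockout replicate 3.

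Cyp2b9 (ENSMUSG00000040660, chromosome 7, 26173411 to 26210661, plus strand, mm10) encodes a testosterone-oxidizing P450 and was the most abundant Cyp2b gene in wild type. It was at 0.180, 1.39 and 0.258 FPKM in knockout replicates 1, 2 and 3, against 17.0, 53.5 and 90.7 FPKM in the wild type libraries in the same order. All knockout libraries lay below all wild type libraries, as in 13.0% of all tested genes. The lowest wild type value was 12.2 times the highest knockout value. Mean levels were 0.610 ± 0.679 FPKM in the knockout and 53.7 ± 36.9 FPKM in wild type (SD, n = 3 each), so that the knockout mean was 0.0114 of the wild type mean. The limma log2 change was -4.88 (SE 0.56, adjusted p 0.00597). The call held when each library was left out in turn, with adjusted p between 0.000749 and 0.0489. At the inferred depth, the knockout levels correspond to about 11.7, 89.2 and 20.6 fragments and the wild type levels to about 1104, 3669 and 5953 fragments. Cyp2b9 RNA was therefore still detected in every knockout library, and its highest knockout value, in replicate 2, was 7.76 times its lowest.

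Cyp2b13 (ENSMUSG00000040583, chromosome 7, 26061497 to 26096197), the neighbouring copy, was listed at 0 in knockout replicate 1 and at 0.0912 and 0.0198 FPKM in knockout replicates 2 and 3. In wild type it was at 1.04, 3.75 and 5.33 FPKM in replicates 1, 2 and 3. The groups did not overlap, which was also true of 24.5% of all tested genes, and the lowest wild type value was 11.3 times the highest knockout value. Knockout values above 0 correspond to only about 5.8 and 1.6 fragments, and a listed 0 can be a failed estimate in this table, where albumin is listed at 0 in 2 libraries. The limma log2 change was -1.93 (SE 0.37, adjusted p 0.0396). This call was lost without knockout replicate 1, 2 or 3 or wild type replicate 2 (adjusted p 0.132, 0.0932, 0.153 and 0.131). It was also lost when genes of every level were tested (0.104).

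Cyp2b10 (ENSMUSG00000030483, chromosome 7, 25897620 to 25926624), the phenobarbital-inducible member, had the lowest wild type mean of the 8 genes. It was listed at 0 in knockout replicate 1 and was at 0.413 and 0.0137 FPKM in knockout replicates 2 and 3, against 0.350, 1.47 and 1.87 FPKM in wild type. Knockout replicate 2 lay above wild type replicate 1, so the groups overlapped. The difference in mean log2(FPKM + 1) was -0.91, and with no filter on low values limma gave it an adjusted p of 0.242. Cyp2b10 therefore passed no test at these levels, where the wild type values correspond to about 23.3, 103.0 and 125.7 fragments.

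The Cyp2b genes varied together between libraries. Among wild type libraries the highest value was 5.35 times the lowest for Cyp2b9, 5.35 times for Cyp2b10 and 5.14 times for Cyp2b13. Over the 10364 tested genes above 0 in every library, the median of this ratio in wild type was 1.29 and the 95th percentile 2.17. Wild type replicate 3, the library that stood apart, was highest and wild type replicate 1 lowest for all 3 genes. In the knockout, replicate 2 was highest for all 3 genes. Summed over Cyp2b9, Cyp2b10 and Cyp2b13, the level was 0.180, 1.90 and 0.291 FPKM in knockout replicates 1, 2 and 3, against 18.3, 58.7 and 97.9 FPKM in wild type replicates 1, 2 and 3.

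Cyp2b9 stood in a near-constant proportion to Cyp2b13 in wild type. The ratio of their FPKM was 15.3 and 13.0 in knockout replicates 2 and 3 and 16.4, 14.3 and 17.0 in wild type. Knockout replicate 1 gave none because Cyp2b13 was listed at 0. The ratios in knockout replicates 2 and 3 rest on about 5.8 and 1.6 Cyp2b13 fragments and are therefore uncertain. The promoter windows of both genes, shown above, differ at 2 bases. The copies share 10.8% of their 50-base stretches, and whether part of the Cyp2b13 signal was Cyp2b9 reads was not tested. The ratio of Cyp2b9 to Cyp2b10 was 3.37 and 18.9 in knockout replicates 2 and 3 and 36.4 to 48.4 in wild type.

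**Figure D2:**
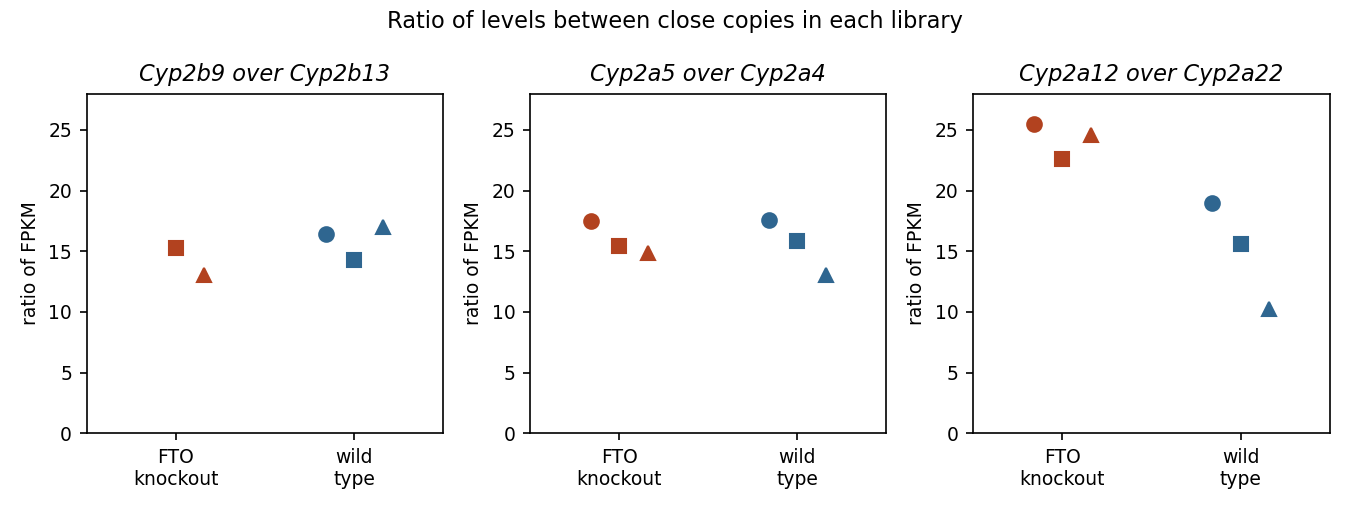
Ratio of FPKM between close copies in each library, with FTO knockout left and wild type right in each panel and circle, square and triangle for replicates 1, 2 and 3. Cyp2b9 over Cyp2b13 (5 libraries) and Cyp2a5 over Cyp2a4 overlap between groups, while Cyp2a12 over Cyp2a22 is 22.6 or more in the knockout and 19.0 or less in wild type.

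Cyp2a5 (ENSMUSG00000005547, chromosome 7, 26835305 to 26843548) was the most abundant member, ranking 107 by mean FPKM among the 10405 tested genes. It was at 993, 1205 and 399.6 FPKM in knockout replicates 1, 2 and 3, against 837, 1006 and 1094 FPKM in wild type. Knockout replicates 1 and 2 lay within or above the wild type range and knockout replicate 3 far below it. Means were 866 ± 418 FPKM in the knockout and 979 ± 131 FPKM in wild type (SD, n = 3 each). The limma log2 change was -0.31 with a 95% interval from -1.20 to 0.57 and an adjusted p of 0.723. Without knockout replicate 3 the change was 0.17, with the opposite sign and an adjusted p of 0.763. The interval includes changes in either direction, so these libraries do not show that Cyp2a5 was the same in both groups.

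Cyp2a4 (ENSMUSG00000074254, chromosome 7, 26307169 to 26315088), a testosterone hydroxylase gene, followed Cyp2a5. Its levels were 56.7, 78.2 and 27.0 FPKM in knockout replicates 1, 2 and 3, against 47.7, 63.4 and 83.9 FPKM in wild type, and the groups overlapped. The limma log2 change was -0.35 (95% interval -1.22 to 0.52, adjusted p 0.676), and 0.070 without knockout replicate 3. The ratio of Cyp2a5 to Cyp2a4 was 17.5, 15.4 and 14.8 in the knockout and 17.5, 15.9 and 13.0 in wild type, with an exact permutation p of 1.0 (two-sided, 6 libraries). Of the 50-base stretches of Cyp2a4, 36.1% also occur in Cyp2a5, and the part that shared reads had in its level was not tested. Unlike Cyp2b9 and Cyp2b13, which belong with it to the female-predominant genes, Cyp2a4 had overlapping groups; the difference between its change and theirs was not tested.

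Knockout replicate 3 was the lowest of the 6 libraries for Cyp2a5, Cyp2a4 and Cyp2a12, but Cyp2a12 lay close to knockout replicate 1 there. In knockout replicate 3 Cyp2a5 was at 1.60 times the level of Cyp2a12, against 3.94 and 4.03 times in knockout replicates 1 and 2 and 3.03 to 3.63 times in wild type. Nr1i3, which encodes CAR, was also lowest there, at 71.2 FPKM, against 109 and 128 FPKM in knockout replicates 1 and 2 and 120 to 126 FPKM in wild type. This was not particular to Nr1i3: Nfe2l2 and Alas1 were lowest in that library too, while Hnf4a was highest. Any link between these levels and the Cyp2a genes was not tested. The part of this library in the Cyp2a values is given by the fits without it.

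Cyp2a12 (ENSMUSG00000060407, chromosome 7, 27029081 to 27037375), which encodes a steroid-oxidizing P450, was the steadiest member. It was at 252, 299 and 250.2 FPKM in knockout replicates 1, 2 and 3, against 276, 325 and 302 FPKM in wild type replicates 1, 2 and 3. The groups overlapped, and the limma log2 change was -0.17 (SE 0.13, 95% interval -0.48 to 0.13, adjusted p 0.54). Its highest value was 1.19 times its lowest among knockout libraries and 1.18 times among wild type libraries.

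Cyp2a22 (ENSMUSG00000091867, chromosome 7, 26931631 to 26939384, minus strand), the close copy of Cyp2a12, was at 9.89, 13.2 and 10.2 FPKM in the knockout and 14.6, 20.8 and 29.6 FPKM in wild type. The groups did not overlap, as in 24.5% of all tested genes, but the lowest wild type value was only 1.10 times the highest knockout value. Means were 11.1 ± 1.84 FPKM in the knockout and 21.6 ± 7.54 FPKM in wild type (SD, n = 3 each), and the limma log2 change of -0.86 (SE 0.24) missed the threshold with an adjusted p of 0.112. Without wild type replicate 1 the change was -1.10 with an adjusted p of 0.0359, and without the other libraries in turn it was not called. The ratio of Cyp2a12 to Cyp2a22 was 25.5, 22.6 and 24.6 in the knockout and 19.0, 15.6 and 10.2 in wild type. These ratios did not overlap, with an exact two-sided permutation p of 0.1, which is the smallest that 3 against 3 libraries allow, and 0.2 after Benjamini-Hochberg adjustment over 2 ratios.

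Summed over Cyp2a4, Cyp2a5, Cyp2a12 and Cyp2a22, the level was 1312, 1596 and 687 FPKM in knockout replicates 1, 2 and 3, against 1175, 1415 and 1510 FPKM in wild type. Cyp2a5 held 58.1% to 75.7% of the sum over all 7 Cyp2a and Cyp2b genes in the knockout and 68.1% to 70.1% in wild type. Cyp2b9 held 0.0137% to 0.0872% of it in the knockout and 1.42% to 5.64% in wild type. Thus the Cyp2b genes were a small part of this RNA pool in either group.

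Por (ENSMUSG00000005514, chromosome 5, 135670033 to 135735326), the shared electron donor, was at 89.1, 109 and 121 FPKM in knockout replicates 1, 2 and 3, against 73.6, 76.4 and 139 FPKM in wild type replicates 1, 2 and 3. Wild type replicate 3 lay above, and wild type replicates 1 and 2 below, all knockout libraries. The limma log2 change was 0.19 (95% interval -0.40 to 0.78, adjusted p 0.749), and without wild type replicate 3 it was 0.49 (adjusted p 0.110).

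**Figure D3:**
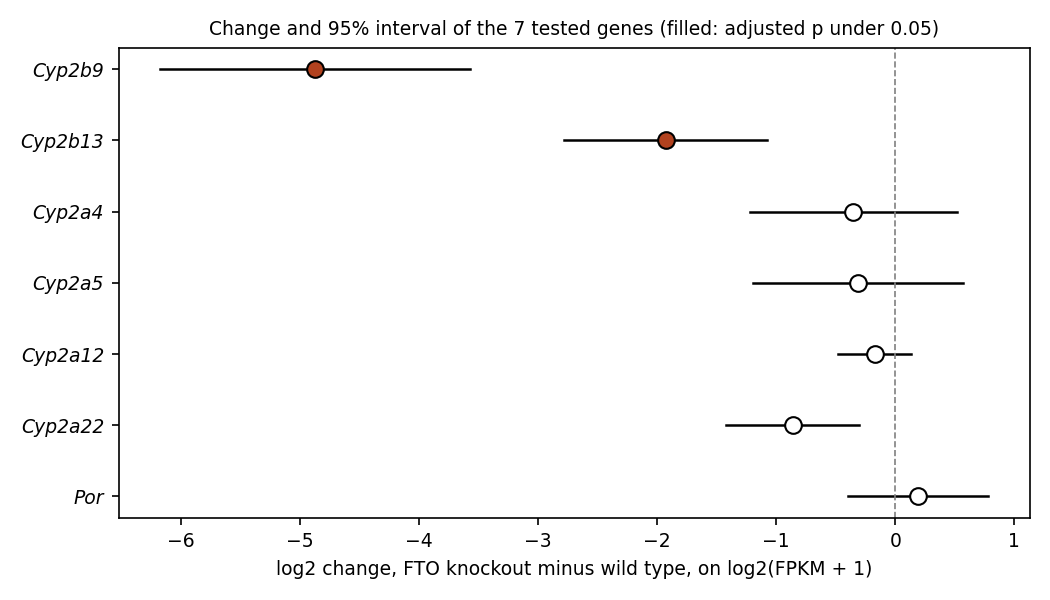
Log2 change (FTO knockout minus wild type, on log2(FPKM + 1)) of the 7 tested genes with its 95% interval from limma. Filled points are called at an adjusted p under 0.05. The intervals of Cyp2b9, Cyp2b13 and Cyp2a22 lie below 0 before adjustment, and those of Cyp2a4, Cyp2a5, Cyp2a12 and Por include 0.

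In order of wild type mean the genes ran Cyp2a5, Cyp2a12, Por, Cyp2a4, Cyp2b9, Cyp2a22, Cyp2b13 and Cyp2b10, all as FPKM and therefore per length. In wild type the ranges of Por (73.6 to 139 FPKM) and Cyp2a4 (47.7 to 83.9 FPKM), of Cyp2a4 and Cyp2b9 (17.0 to 90.7 FPKM), of Cyp2b9 and Cyp2a22 (14.6 to 29.6 FPKM), and of Cyp2b13 and Cyp2b10 overlapped between libraries. Within each wild type library, however, Por was above Cyp2a4, Cyp2b9 above Cyp2a22 and Cyp2b13 above Cyp2b10, while Cyp2b9 lay below Cyp2a4 in replicates 1 and 2 and above it in replicate 3. In the knockout Cyp2b9 fell below Cyp2a22 in every library.

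Within the span from Cyp2b10 to Cyp2a12 the table held 15 genes, of which 9 had a mean under 1 FPKM. Going along the chromosome, Cyp2b10, Cyp2b13 and Cyp2b9 come first and Cyp2a4 next, with Cyp2a5, Cyp2a22 and Cyp2a12 at the far end. Between Cyp2a4 and Cyp2a5 lie Nlrp9c, Nlrp4a, Nlrp9a, Vmn1r185, Cyp2b23, Cyp2b19 and Cyp2g1. Cyp2b19 was listed at 0 in all 6 libraries and Cyp2b23 in all but wild type replicate 2 (0.0065 FPKM). Vmn1r184, beside Cyp2b9, Nlrp9c, Nlrp4a, Nlrp9a and Vmn1r185 had at most 0.0365 FPKM. Cyp2g1, a P450 of the olfactory mucosa, was at 0.861, 1.56 and 0.456 FPKM in the knockout and 0.446, 0.658 and 0.703 FPKM in wild type, with overlapping groups. The tested genes inside the span were all members. Of 39 other tested genes, which lay outside the span but within 1 Mb of it, 0 were called higher by limma. In this set 1 gene (Grik5) was called lower, and the median log2 change was 0.03. Calls over all tested genes were 1.11% higher and 1.65% lower.

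**Figure D4:**
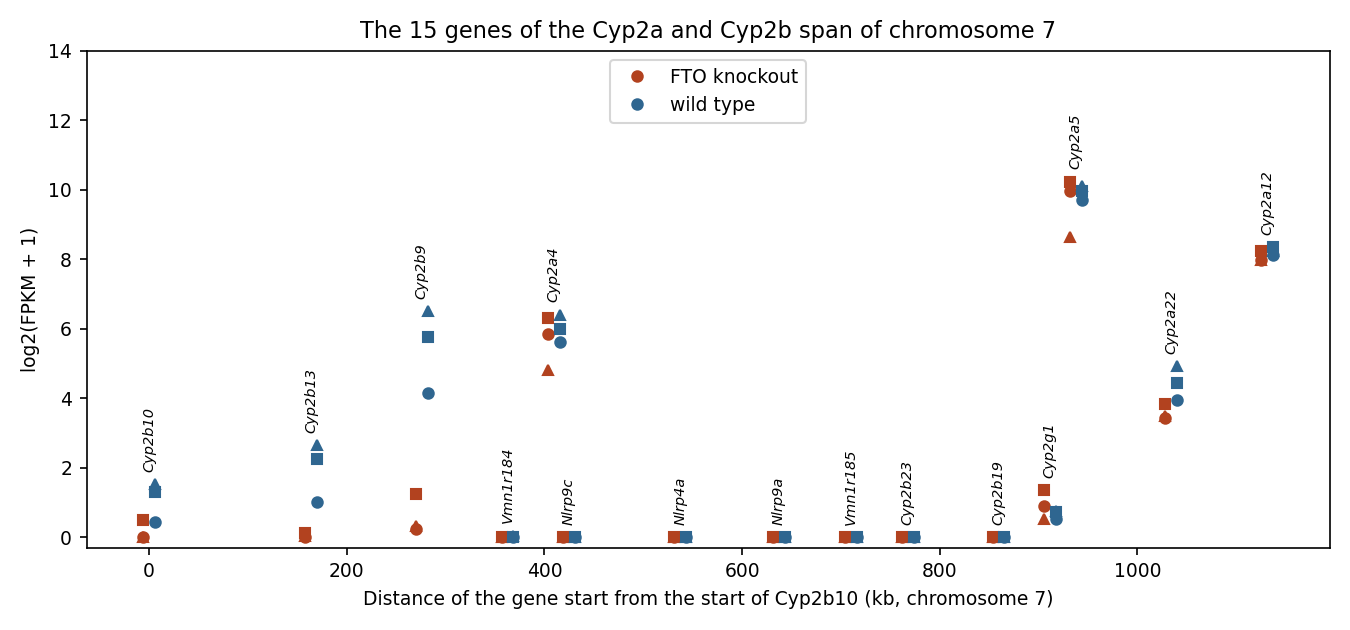
log2(FPKM + 1) of the 15 genes of the span against the distance of each gene start from that of Cyp2b10, in kb, with one point per library (FTO knockout red and left, wild type blue and right, replicates 1, 2 and 3 as circle, square and triangle). Cyp2b13 and Cyp2b9 show separated groups, Cyp2a22 lies just apart, and the genes between Cyp2a4 and Cyp2g1 sit at or near 0.

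The regulators known to act on these promoters were then read. Of 31 tested regulators of Cyp2a and Cyp2b transcription, limma called 0 higher and 0 lower (4 and 3 before adjustment, at p under 0.05, where 8.65% of all tested genes were higher and 10.02% lower), with a median log2 change of -0.01 against -0.0018 over all tested genes. Nr1i3 averaged 103 ± 29.0 FPKM in the knockout and 123 ± 3.19 FPKM in wild type (SD, n = 3 each; limma adjusted p 0.492). Nr1i2, the PXR gene, was at 18.1, 19.6 and 21.8 FPKM in the knockout and 28.2, 26.5 and 33.6 FPKM in wild type. These groups did not overlap, yet Nr1i2 had an adjusted p of 0.0774 (log2 change -0.54), which became 0.0487 with median ratio size factors and 0.0404 with quantile normalization. Hnf4a, a master factor of hepatocytes, was at 83.4, 83.9 and 101.6 FPKM in the knockout and 76.6, 74.3 and 64.6 FPKM in wild type, groups that did not overlap (adjusted p 0.258). Nfe2l2, which encodes the Cyp2a5 activator NRF2, averaged 32.5 ± 5.10 FPKM in the knockout and 45.0 ± 5.61 FPKM in wild type (adjusted p 0.164). The groups of Nfe2l2 did not overlap either, and this was true of 24.5% of all tested genes.

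Other targets of CAR and PXR were mostly lower, though few were called. Of 32 tested targets other than the members, 3 were called lower and 0 higher, 27 had log2 changes below 0 and the median was -0.36. Among all tested genes 5229 of 10405 were below 0, 1.65% were called lower and 1.11% higher. The called genes were Aldh1a7, an aldehyde dehydrogenase at 0.604 of its wild type mean, Abcc2, an organic anion exporter at 0.626, and Cyp3a25, a P450 at 0.626 (limma adjusted p 0.0253, 0.0385 and 0.0496). The count was 0 without knockout replicate 1 or 3 or wild type replicate 2 and 1 without knockout replicate 2, and 3 or 4 without wild type replicate 1 or 3. With no filter on low values the calls of Abcc2 and Cyp3a25 were lost (adjusted p 0.0576 and 0.0791), and that of Cyp3a25 also under a higher filter, quantile normalization and robust eBayes (0.0558, 0.0587 and 0.0521). Of these targets Cyp3a11, the main Cyp3a enzyme, averaged 1026 ± 213 FPKM in the knockout and 1065 ± 63.2 FPKM in wild type and was not called (adjusted p 0.873).

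Of 22 tested genes of P450 electron transfer and haem supply other than Por, 1 was called lower and 0 higher. Over all tested genes, calls were 1.65% lower and 1.11% higher. Before adjustment 8 of the 22 were lower and 1 higher at p under 0.05 in limma, against 10.02% and 8.65% of all tested genes. The called gene was Pgrmc2, a haem-binding membrane protein gene, which was at 15.9 to 16.1 FPKM in the knockout and 24.98 to 29.6 FPKM in wild type (limma adjusted p 0.0182). Its call was lost without any of the knockout libraries or without wild type replicate 2, with adjusted p up to 0.0836. Cyb5a, the cytochrome b5 gene, averaged 2041 ± 243 FPKM in the knockout and 1993 ± 377 FPKM in wild type (adjusted p 0.932). Cyb5r3, the gene of its reductase, averaged 190.2 ± 28.4 FPKM in the knockout and 262 ± 22.2 FPKM in wild type (adjusted p 0.151). Alas1, the first enzyme of haem synthesis, was at 89.3 to 141 FPKM in the knockout and 108 to 286 FPKM in wild type, highest in wild type replicate 3 (adjusted p 0.476).

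Among 29 tested Cyp2 genes of other subfamilies, limma called 1 higher and 3 lower, against 1.11% and 1.65% of all tested genes. Cyp2c70, a bile acid hydroxylase gene, rose to 2.30 times its wild type mean (limma adjusted p 0.00395). Cyp2c38, Cyp2c39 and Cyp2j9 fell to 0.342, 0.221 and 0.316 of theirs (limma adjusted p 0.00533, 0.0137 and 0.0178). The calls of Cyp2c70 and Cyp2c38 held without each library in turn. That of Cyp2c39 was lost without knockout replicate 1 or 3 (adjusted p 0.0597 and 0.0598), and that of Cyp2j9 without knockout replicate 2 or 3 or wild type replicate 2 (0.0531, 0.0952 and 0.0670). Both were also lost with no filter (0.0534 for Cyp2c39 and 0.0650 for Cyp2j9), and Cyp2c39 had reached the filter only through its wild type libraries. Cyp2f2, which adjoins the Cyp2a genes, averaged 477 ± 15.7 FPKM in the knockout and 381 ± 22.4 FPKM in wild type. Its groups did not overlap, as in 24.5% of all tested genes, and it was not called (limma adjusted p 0.193).

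Cyp2b9 and Cyp2b13 are among the genes that female mice express more strongly in liver. All 6 libraries had at least 1.97 FPKM of each of 4 Y-linked genes and at most 0.0662 FPKM of Xist. That is the pattern of male tissue, in both groups, though the labels give no sex. Of 23 other tested female-biased genes, 5 were called lower and 0 higher, against 1.65% and 1.11% of all tested genes. The median log2 change of the 23 was -0.36. The lower genes with the smallest p were Acot3, a thioesterase gene, at 0.289 of its wild type mean, Abcd2, a peroxisomal transporter gene, at 0.0739, Cyp2c39 and Cyp17a1, a steroid hydroxylase and lyase gene, at 0.218. The fifth was Hao2, a peroxisomal oxidase gene (limma adjusted p 0.0484), and the Cyp17a1 call was lost in 4 of 6 fits without a library and with no filter (0.0955). Abcd2, Hao2 and Cyp2c39 reached the filter only through wild type, so the count is a description. The count was 2 or 3 without any of the knockout libraries or wild type replicate 2, and 6 without wild type replicate 1 or 3. The female-predominant P450 gene Cyp3a44 averaged 12.1 ± 2.31 FPKM in the knockout and 11.6 ± 0.351 FPKM in wild type (adjusted p 0.928).

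Of 37 tested male-biased genes, 12 were called higher and 1 (Themis) lower, with a median log2 change of 0.61. Over all tested genes 1.11% were called higher and 1.65% lower. Of the male-biased genes 27 had changes above 0 and 10 below, from -4.44, in a gene that was not called, to 2.44. Among those that rose, Cib3 reached 10.9 times, Selenbp2 4.46 times and Capn8 6.31 times its wild type mean (limma adjusted p 0.000513, 0.000793 and 0.00426). Cib3 and Capn8 reached the filter only through the knockout libraries, and Themis only through wild type. The count higher was 4 without knockout replicate 3 and 7 without wild type replicate 2, and 8 to 14 without the others. Bcl6, a male-biased repressor of female-type genes, was at 13.7, 20.6 and 19.1 FPKM in the knockout and 9.06, 9.56 and 3.95 FPKM in wild type. Its groups did not overlap, as in 24.5% of all tested genes, and it missed the threshold with a limma adjusted p of 0.0827. Cux2, a female-type activator, was at 0.239 FPKM or less in every library.

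Of 20 tested genes of growth hormone signalling, 2 were called higher and 0 lower, against 1.11% and 1.65% of all tested genes. The higher genes were Socs2, which encodes a feedback inhibitor of the pathway (3.45 times its wild type mean, adjusted p 0.0212 in limma), and Onecut1, a liver transcription factor gene (3.63 times, adjusted p 0.0391). The Socs2 call was lost in 4 of 6 fits without a library and the Onecut1 call in 5, with adjusted p up to 0.083 and 0.140, and both were lost with no filter (0.0714 and 0.104). Stat5b, the main transducer of growth hormone in liver, averaged 5.06 ± 0.157 FPKM in the knockout and 5.58 ± 0.617 FPKM in wild type (adjusted p 0.621).

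Limma called 0 of 20 genes of the circadian clock and PAR bZIP factors, which regulate Cyp2b10, Cyp2a5 and Por in mice (before adjustment 1 was higher and 0 lower at p under 0.05). Dbp, the PAR bZIP factor with the widest daily swing, averaged 53.4 ± 18.5 FPKM in the knockout and 43.5 ± 8.17 FPKM in wild type (adjusted p 0.645). Limma also called 0 of 17 pericentral genes, the zone in which Cyp2a5 and Cyp2b10 are expressed (0 higher and 4 lower unadjusted), and 0 of 19 periportal genes (5 higher and 2 lower unadjusted). Over all tested genes, 8.65% were higher and 10.02% lower before adjustment.

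**Figure D5:**
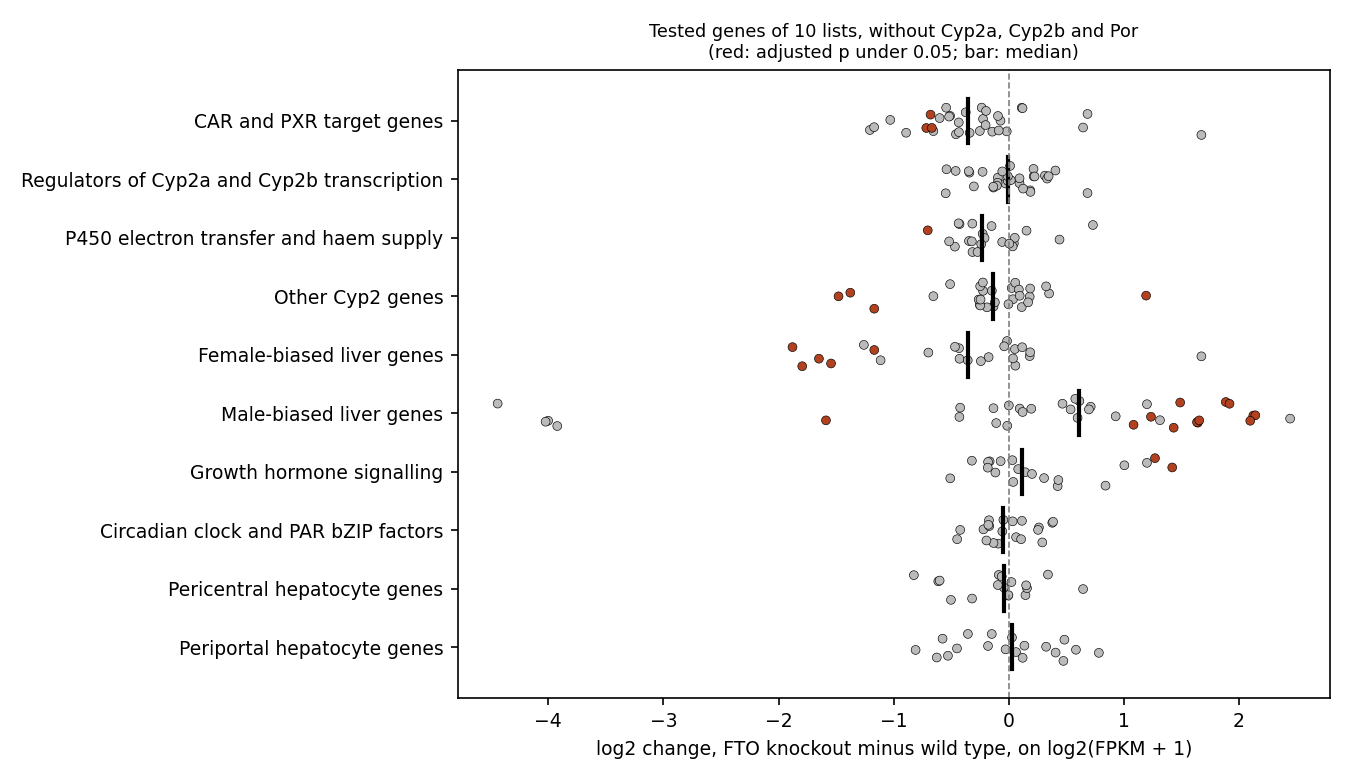
Log2 change (FTO knockout minus wild type, on log2(FPKM + 1)) of the tested genes in 10 lists, without the Cyp2a, Cyp2b and Por genes. Points are genes, red where the adjusted p is under 0.05, and bars are list medians. The medians lie at -0.36 for CAR and PXR targets, -0.36 for female-biased genes and 0.61 for male-biased genes.

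Markers of other cells moved with the groups in part. All 14 Kupffer cell markers had log2 changes above 0, with 0 passing limma's threshold (5 higher and 0 lower before adjustment), and summed to 221 to 385 FPKM in the knockout and 80.9 to 267 FPKM in wild type. Of 5 tested adipocyte markers 3 (Cidea, Cfd and Pparg) were lower, and the 9 in the table summed to 17.6 to 21.7 FPKM in the knockout and 56.5 to 96.1 FPKM in wild type. The defining adipocyte genes Adipoq, Plin1, Lep and Retn had means under 0.1 FPKM. Erythroid markers summed to 316 to 457 FPKM in the knockout and 406 to 875 FPKM in wild type, with 0 of 5 called (0 higher and 4 lower unadjusted). Of 13 tested hepatocyte markers 1 (Ahsg) was called higher and 12 were not called (before adjustment, 5 were higher and 0 lower). Calls over all tested genes were 1.11% higher and 1.65% lower. Over all tested genes, 8.65% were higher and 10.02% lower before adjustment. Sinusoidal endothelial, stellate and neutrophil markers had 0 called of 12, 7 and 2 (before adjustment, 1 endothelial marker was lower and 0 of the others passed), and of 3 tested cholangiocyte markers Onecut1 was higher. No T, NK or B cell marker reached the filter, and those lists summed to 2.94 FPKM or less. The part of these cells in the Cyp2b difference was not tested, and in bulk tissue fewer cells of a type and less RNA per cell cannot be told apart.

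The genes most like each member were those with the highest Pearson r of log2(FPKM + 1) over the 6 libraries, a description over few points that share the same 2 groups. Nearest to Cyp2b9 were 2900005J15Rik, Aldh1a7 and Slc22a29 (r = 0.998, 0.998 and 0.996), and nearest to Cyp2b13 were Msra, Cryl1 and Ascc1 (0.997, 0.997 and 0.994). Fn3k stood first for both Cyp2a4 (0.994) and Cyp2a5 (0.975), followed by Ces2c and Sat2 (0.973 and 0.972) for Cyp2a4 and by Bhlhe40 and Snhg11 (0.965 and 0.953) for Cyp2a5. Uggt2, Suv39h1 and Hsd3b6 (0.994, 0.990 and 0.984) were nearest to Cyp2a12, and Phyhd1, Pgd and Mocs2 (0.998, 0.996 and 0.994) to Cyp2a22. For Por these were Vbp1, Zfas1 and Pdf (0.995, 0.988 and 0.988).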

How the data were processed

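The deposited table gave FPKM per gene, which the authors made with tools that the submitters' processing notes name without roles (TopHat2 2.1.0, HTSeq and Cufflinks 2.2.1, build mm10). No source used here gives the annotation release or states the unit, which was taken from the values and from Cufflinks. Total RNA was isolated with Trizol, per the labels' protocols. GENCODE M21 (GRCm38) matched 24807 of 25690 identifiers. In 31 genes a listed 0 stood beside 10 FPKM or more in some other library, so library values replace means where a 0 occurs. No pair of libraries had identical values. FPKM are no counts, so no count model was used. limma 3.58.1 (R 4.3.3; lmFit and eBayes with trend, two-sided) was fitted to log2(FPKM + 1), pseudocount 1, for genes averaging 1 FPKM or more, and tested on simulated data. Replicate numbers follow sample order. Depth is a median over 49 to 60 low values per library from 964 single-transcript genes, kept only where they gave a depth within a preset range. Transcript stretches were compared over all GENCODE transcripts, both strands; coding sequences were aligned with Biopython 1.88. The members and lists were chosen with earlier results of these data known. Besides the members, the genes named are Fto, regulators and partners set by name, up to 4 called genes per list by smallest p, the genes of the chromosome 7 span and the 3 most correlated genes per member; Cyp2e1, Cyp2f2, Cyp3a11, Cyp3a44, Grik5, sex chromosome genes and cell markers were named after their values were seen. The alternatives were a pseudocount of 0.1, no filter, a mean of at least 5 FPKM, median ratio size factors, quantile normalization, robust eBayes and leaving out each library.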

Additional observations from a re-analysis of the deposited data

How the results depend on the processing

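Cyp2b9 kept its direction and its call under all 12 alternatives, with log2 changes from -6.36 (pseudocount 0.1) to -4.36. Cyp2b13 kept its direction; its change was -1.93 with no filter on low values (adjusted p 0.104, over more genes tested), -4.45 with a pseudocount of 0.1 and -2.40 to -1.59 with a library left out, and 4 of those 6 fits lost the call. Cyp2a22 ran from -1.10 to -0.62 with a library left out. Cyp2a4 ran from -0.68 to 0.070 and Cyp2a5 from -0.63 to 0.17, both above 0 only without knockout replicate 3. Cyp2a12 and Por were called under no alternative. Of all genes, 115 were higher and 172 lower; these counts were 69 and 96 at a mean of at least 5 FPKM, where fewer genes were tested, 180 higher with quantile normalization, 93 lower with no filter, and 38 to 266 higher and 39 to 209 lower with a library left out. With a library left out, an alternative added for lists after the data were seen, 0 to 4 CAR and PXR targets were lower, 2 to 6 female-biased genes lower and 4 to 14 male-biased genes higher. Among the 28 other genes refitted, Dbp ran from -0.0060 (without knockout replicate 2) to 0.45 and Cyb5a from -0.069 (without wild type replicate 1) to 0.19, with -0.033 without knockout replicate 2, and both were above 0 otherwise; the cause was not tested. Cyp2b10, below the filter, could be fitted only with no filter. No paired analysis was possible because the labels give no replicate numbers shared between the groups. Depth limits Cyp2b10 and Cyp2b13 in the knockout, at about 0, 27.0 and 1.1 fragments for Cyp2b10 and 0, 5.8 and 1.6 for Cyp2b13. With no filter on low values the calls of Fto, Abcc2, Cyp3a25, Cyp2c39, Cyp2j9, Cyp17a1, Socs2 and Onecut1 were also lost.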
